A study of Mus musculus with 2 samples.

Results

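The cells described here are hindlimb mesenchyme with RNA of the homeobox genes Gsc (goosecoid) or Barx2. They were picked by their own counts, so the levels of both genes describe the choice and are not a result. A cell was first gated as mesenchyme: at least 1000 genes, at most 10% mitochondrial UMIs (unique molecular identifiers, each counting 1 captured transcript), at least 2 UMIs of the limb mesenchyme gene Prrx1, none of Epcam, Cdh5, Lbx1 or Csf1r, and globins under 2% of its UMIs. Members then had at least 2 UMIs of Gsc and Barx2 together and none of Cnmd (chondromodulin, a cartilage gene) or Shh. This left 1549 members among 16136 gated cells and 29393 barcodes in all. They were set against the 13007 gated cells with neither Gsc nor Barx2, called reference cells below, and against 420 gated cells with both Cnmd and Sox9, called condensation cells.

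The study read the activity of an enhancer and of a variant of it in mouse embryos. Both libraries are single-cell RNA-seq of FVB embryonic hindlimbs at E11.5, from embryos with a pair of reporters at the H11 site. Each reporter was under the ZRS, the limb enhancer of Shh: the reference ZRS drove mCherry, and the allele ZRS404G>A drove eGFP. The dual-enSERT-2 label adds a B at both ends of the dual-enSERT-1 arrangement and an SI between the reporters, and the labels do not spell either out. All groups carry both reporters, and none lacks the variant allele. Each arrangement has 1 library, and the labels do not say how many embryos went into it, so the library, the embryos, the construct and the preparation cannot be told apart. No difference below has a replicate check, and no test was run. Intervals are exact, at 95%, and cover counting error only. CPM, counts per 1000000, is a gene's UMIs out of 1000000 UMIs pooled over the cells of a group in 1 library, and it compares cells within a gene, not genes with each other.

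Gsc and Barx2 encode homeodomain transcription factors. Gsc is best known from the organizer of the early embryo and is used again later in head and limb mesenchyme, and Barx2 is known from cartilage-forming mesenchyme, muscle and epithelia. In the limb bud, proximal mesenchyme carries the Meis factors and the distal part carries Hoxa13 and Hoxd13, while Sox9 marks cells entering cartilage condensations and Scx the progenitors of tendon.

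In dual-enSERT-1, 1454 of 12386 gated cells were members, or 11.7% (11.2 to 12.3). In dual-enSERT-2, 95 of 3750 were, or 2.53% (2.05 to 3.09). The share was lower in dual-enSERT-2 although its cells were sequenced more deeply, with a median of 28184 UMIs in members against 14071.5 in dual-enSERT-1. Members were close to the reference cells of their own library in depth, which had medians of 25755 and 15184 UMIs. The choice rests on few molecules. Among members of dual-enSERT-1, 552 had exactly 2 UMIs of Gsc and Barx2, 558 had 3 or 4, 312 had 5 to 9 and 32 had 10 or more, with a median of 3 and a highest value of 14. In dual-enSERT-2 the numbers were 46, 37, 12 and 0, with a median of 3 and a highest value of 9. Just outside the limit stood 1215 and 197 cells with 1 UMI. The exclusions took away 40 cells with Cnmd and 29 with Shh in dual-enSERT-1, and none in dual-enSERT-2. The libraries share 49 barcodes, of which 0 belong to members.

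The 2 genes were unequally present. In dual-enSERT-1, 1137 members had Gsc alone, 68 had Barx2 alone and 249 had both, whereas in dual-enSERT-2 93 had Gsc alone, 0 had Barx2 alone and 2 had both. Gsc lies on chromosome 12 at 104437468 to 104439632 and Barx2 on chromosome 9 at 31757339 to 31824779, both on the minus strand of GRCm39. Gsc stood at 186 CPM in members of dual-enSERT-1 and 93.5 CPM in those of dual-enSERT-2. Barx2 stood at 24.9 CPM and 0.995 CPM. A Gsc UMI was seen in 20.7% and 7.73% of gated cells, and in 3.07% and 0.495% of the cells with Epcam, Cdh5, Lbx1 or Csf1r, which should lack it and have median depths of 17691 and 20947 UMIs against 15010 and 25920. A Barx2 UMI was seen in 4.29% and 0.267% of gated cells. It was also seen in 32.0% and 38.6% of cells with the epithelial gene Epcam, so Barx2 RNA is not particular to mesenchyme in these limbs.

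Of the 5 genes that mark the cells, Gsc, Ebf2 and Enpp2 were present in both libraries. Barx2 and Cacna1e, a voltage-gated calcium channel subunit, were near 0 in dual-enSERT-2. Cacna1e stood at 10.5 CPM in members and 0.857 CPM in reference cells of dual-enSERT-1, but at 0.332 CPM (1 UMI) and 0.306 CPM in dual-enSERT-2. In dual-enSERT-2 the cells are therefore Gsc-positive mesenchyme, and statements on Barx2 rest on dual-enSERT-1 alone.

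Members carried the mesenchymal markers Prrx1, Prrx2, Pdgfra, Twist1 and Col1a2 at a summed 1692 CPM in dual-enSERT-1 and 1380 CPM in dual-enSERT-2, beside 1806 CPM and 1570 CPM in reference cells. The 6 chondrogenic markers summed to 598 CPM and 228 CPM in members and 328 CPM and 108 CPM in reference cells, with Cnmd at 0 by rule and Acan at 0 too. Muscle, endothelial and macrophage markers each summed to under 10 CPM, with 1 to 7 markers of each list at 0. The 9 ectoderm markers summed to 29.1 CPM in members and 17.3 CPM in reference cells of dual-enSERT-1, and to 10.3 CPM and 10.1 CPM in dual-enSERT-2, with Epcam at 0 by the gate. The 6 neural crest and glia markers summed to 8.31 CPM against 6.33 CPM, and to 10.9 CPM against 4.31 CPM. Scrublet marked 239 members (16.4%) and 756 reference cells (7.91%) of dual-enSERT-1 as doublets, and 2 members (2.11%) and 16 reference cells (0.463%) of dual-enSERT-2. Members of dual-enSERT-1 thus held more marked doublets. Values without these doublets are given where a ratio of members to reference cells moved by more than 1.5 times. They are also given for some genes that differed between members with Gsc alone and with Barx2 alone. Median mitochondrial shares were 1.65% and 1.57% in members and 1.54% and 1.58% in reference cells.

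Against reference cells, the members of both libraries had more RNA of a set of transcription factors and secreted proteins led by Ebf2, and less RNA of a smaller set led by Msx1, which included distal limb genes and both reporters. Of 6793 genes that reached 20 CPM on either side of the comparison in each library, 13 (0.191%) were higher and 11 (0.162%) lower by at least 2-fold in both, or 24 (0.353%) in all, after adding 1 CPM to each level. Over all genes compared the median log2 difference was 0.01 and 0.00. Within dual-enSERT-1 alone, 58 of 7284 genes (0.796%) were higher and 30 (0.412%) lower by that measure, and within dual-enSERT-2 alone 41 of 7058 (0.581%) and 32 (0.453%).

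**Figure D1:**
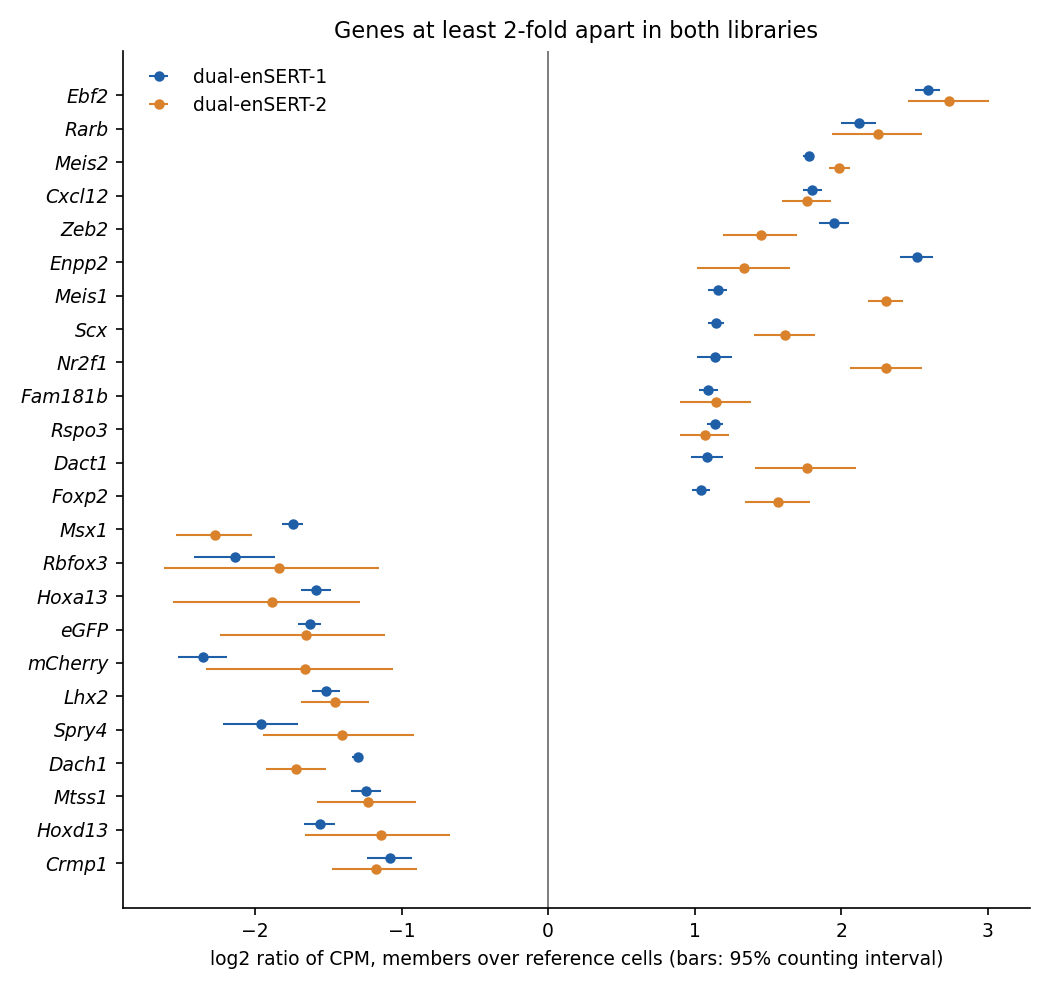
Log2 ratio of pooled CPM in Gsc- or Barx2-positive cells over reference cells (x axis) for the 24 genes at least 2-fold apart in the same direction in both libraries (y axis), with 1 point for each library and bars for the exact 95% counting interval. Points and bars are of the plain ratio, without the added 1 CPM. Ebf2 is the highest of the 13 higher genes, with intervals of 2.507 to 2.676 and 2.46 to 3.006 in the respective libraries. Msx1 is among the lowest. With 1 CPM added to each level, the log2 values are 2.51 and 2.57 for Ebf2 and -1.73 and -2.25 for Msx1.

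Ebf2 encodes a helix-loop-helix transcription factor of mesenchymal and neural precursors, and lies on chromosome 14 at 67470736 to 67668394 on the plus strand. It stood at 89.0 CPM in members against 14.8 CPM in reference cells of dual-enSERT-1, while in dual-enSERT-2 it stood at 45.8 CPM against 6.86 CPM. The ratios were 6.03 (5.68 to 6.39) and 6.67 (5.5 to 8.03), the highest of the 13 genes in both libraries. An Ebf2 UMI was seen in 38.7% of members and 9.20% of reference cells in dual-enSERT-1, and in 42.1% and 8.08% in dual-enSERT-2. After every cell was thinned to 5000 UMIs, which left out 13 members and 374 reference cells of dual-enSERT-1 and 0 and 170 of dual-enSERT-2, the shares were 23.0% and 5.42%, and 15.8% and 2.68%. Most members thus had no Ebf2 UMI at this depth, and the difference between the cell groups was present with and without thinning. Among the 6 Ebf factors and their zinc-finger partners listed, 5 were compared and 1, Ebf2, reached 2-fold in both libraries. Ebf1 did so in dual-enSERT-1 alone, at 1095 CPM against 489 CPM, and in dual-enSERT-2 it stood at 236 CPM against 204 CPM. Ebf3 stood at 86.1 CPM against 44.1 CPM and at 58.4 CPM against 23.5 CPM, log2 differences of 0.95 and 1.28.

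Other transcription factors stood with Ebf2. Rarb, a retinoic acid receptor, was at 38.7 CPM against 8.91 CPM in dual-enSERT-1 and 34.5 CPM against 7.24 CPM in dual-enSERT-2. Zeb2, a zinc-finger repressor, was at 48.7 CPM against 12.6 CPM and at 47.1 CPM against 17.2 CPM. Nr2f1, an orphan nuclear receptor, was at 31.5 CPM against 14.4 CPM and at 54.4 CPM against 11 CPM, a ratio of 2.20 (2.02 to 2.38) and of 4.96 (4.17 to 5.85). The ratios of Nr2f1 thus lay further apart between the libraries than counting error allows, while those of Rarb, 4.35 (4 to 4.72) and 4.76 (3.83 to 5.87), did not. Scx, the tendon progenitor factor, stood at 158 CPM against 71.4 CPM and at 70.0 CPM against 22.8 CPM, and was seen in 78.1% of members against 48.0% of reference cells, and in 68.4% against 32.7%. The forkhead factor Foxp2 stood at 113 CPM against 54.9 CPM and at 62.3 CPM against 21.0 CPM. Of 10 forkhead genes listed, 3 were compared and 1 reached 2-fold in both. Foxc1 was under the level set for that count, at 20.8 CPM against 5.31 CPM and 14.3 CPM against 1.62 CPM.

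Secreted proteins and signalling genes followed. Cxcl12, the chemokine that guides Cxcr4-positive cells such as migrating muscle precursors, stood at 126 CPM against 36.1 CPM and at 110 CPM against 32.4 CPM. Its UMIs were seen in 71.5% of members and 27.4% of reference cells of dual-enSERT-1, and in 70.5% and 28.5% in dual-enSERT-2, so the cell groups were apart to a like degree in both libraries. Enpp2, which encodes autotaxin, the secreted enzyme that makes lysophosphatidic acid, lies on chromosome 15 at 54701324 to 54816288 and stood at 47.6 CPM against 8.32 CPM in dual-enSERT-1 and 30.2 CPM against 11.9 CPM in dual-enSERT-2. The ratio was 5.72 (5.28 to 6.19) in the former and 2.53 (2.02 to 3.14) in the latter. Of 10 genes listed for that lipid, its receptors and phosphatases included, 6 were compared, and 1, Enpp2, reached 2-fold in both libraries. In dual-enSERT-2 that call was lost among members with at least 3 Gsc and Barx2 UMIs, at a log2 difference of 0.86, and at 5000 UMIs Enpp2 was seen there in 6.32% (2.35 to 13.2) of members against 4.81% of reference cells. The receptor gene Lpar1 stood at 419 CPM against 392 CPM and at 391 CPM against 363 CPM. Rspo3, an amplifier of Wnt signals, stood at 147 CPM against 66.7 CPM and at 103 CPM against 49.1 CPM. Dact1, a Dishevelled-binding protein, stood at 35.7 CPM against 16.8 CPM and at 26.2 CPM against 7.70 CPM. Fam181b completes the 13 genes, at 98.8 CPM against 46.3 CPM and at 50.1 CPM against 22.6 CPM.

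The proximal factors Meis1 and Meis2 were higher in members, in unequal ways. Meis2 stood at 370 CPM against 108 CPM in dual-enSERT-1 and 612 CPM against 154 CPM in dual-enSERT-2. Its UMIs were seen in 40.9% of members and 31.3% of reference cells of dual-enSERT-1, and in 89.5% and 58.7% of those of dual-enSERT-2. Members of dual-enSERT-2 were thus nearly all Meis2-positive, and those of dual-enSERT-1 mostly were not. Meis1 stood at 110 CPM against 49.4 CPM and at 227 CPM against 46.0 CPM. Of 9 proximal genes listed, 7 were compared and 2, these, reached 2-fold, with a list median of 0.57 and 0.84.

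Of the 11 genes lower in members, 4 were on the list of distal limb genes. Msx1, a homeobox gene of the BMP-responsive distal mesenchyme, stood at 67.2 CPM against 225 CPM in dual-enSERT-1 and 42.4 CPM against 205 CPM in dual-enSERT-2. Its UMIs were seen in 25% of members against 55.0% of reference cells, and in 26.3% against 66.6%. Lhx2, a LIM-homeobox gene of distal outgrowth, stood at 36.8 CPM against 105 CPM and at 52.1 CPM against 142 CPM. Hoxa13 stood at 31.9 CPM against 95.5 CPM and at 7.29 CPM against 26.9 CPM. Hoxd13 stood at 31.0 CPM against 91.4 CPM and at 11.9 CPM against 26.3 CPM. The rule bars Shh- and Cnmd-positive cells from the members only. Reference cells without them had 89.3 CPM and 23.1 CPM of Hoxd13, so its difference in dual-enSERT-2 was then under 2-fold. Against these reference cells 5 genes were counted as 2-fold lower in both libraries, and Crmp1 had a log2 difference of -0.94 in dual-enSERT-1. The list had 7 genes compared, of 9 listed, and its median was -1.49 and -1.11. None of the 7 was 2-fold higher. The other genes of the group of 11 were the eGFP and mCherry reporters, described below, and Dach1, Spry4, Mtss1, Crmp1 and Rbfox3. Dach1, a nuclear cofactor, stood at 230 CPM against 565 CPM and at 65.3 CPM against 215 CPM. The splicing factor gene Rbfox3 stood at 4.59 CPM against 20.2 CPM and at 5.64 CPM against 20.1 CPM. Without marked doublets the differences of dual-enSERT-1 were larger: the log2 values were -2.81 for Msx1, -2.30 for Lhx2, -2.28 for Hoxa13, -2.49 for Hoxd13, -2.65 for Spry4 and -2.82 for Rbfox3.

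The differences were read again away from the distal bud. Among cells with no Hoxa13 or Hoxd13 UMI, 1000 members against 4602 reference cells in dual-enSERT-1 and 80 against 2257 in dual-enSERT-2, 12 and 19 of the 24 genes were still 2-fold apart, with Hoxa13 and Hoxd13 themselves at 0 by that choice. Ebf2 kept log2 differences of 2.11 and 2.42, Rarb of 1.80 and 1.98, Cxcl12 of 1.16 and 1.43, and Msx1 of -2.04 and -2.45. Scx (0.69), Meis1 (0.59), Foxp2 (0.46), Nr2f1 (0.57), Fam181b (0.59), Dact1 (0.69), Mtss1 (-0.68) and Crmp1 (-0.51) were under 2-fold in dual-enSERT-1 among such cells, and Enpp2 (0.96) in dual-enSERT-2. Both reporters were under 2-fold in both libraries there.

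Levels were also read in cells ordered by their Gsc and Barx2 UMIs, taking the cells with Cnmd and Shh at 0 throughout. In dual-enSERT-1 Ebf2 stood at 15.8 CPM in cells with no such UMI, 42.1 CPM with 1, 56.8 CPM with 2, 96.6 CPM with 3 or 4 and 126 CPM with 5 or more. In dual-enSERT-2 the levels were 7.36, 19.9, 33.9, 50.8 and 76.1 CPM. Ebf2 was thus higher at each step in both libraries, and cells with 1 UMI, which the rule leaves out, lay between the reference cells and the members. Msx1 went the other way in dual-enSERT-1 up to the last bin, from 214 CPM through 102, 88.8 and 52.1 CPM to 56.9 CPM. In dual-enSERT-2 it stood at 199, 78.7, 46.5, 49.0 and 9.82 CPM. Meis2 was highest with 3 or 4 UMIs in dual-enSERT-1, at 408 CPM against 336 CPM with 5 or more, while in dual-enSERT-2 it was higher at each step, from 162 CPM to 746 CPM. Enpp2 was higher at each step in dual-enSERT-1, from 7.79 to 68.5 CPM, and had no order in dual-enSERT-2, where the levels were 12.7, 28.7, 37.9, 15.4 and 41.7 CPM. The highest bin of dual-enSERT-2 holds 12 cells, and the order of Ebf2 is the same without it.

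**Figure D2:**
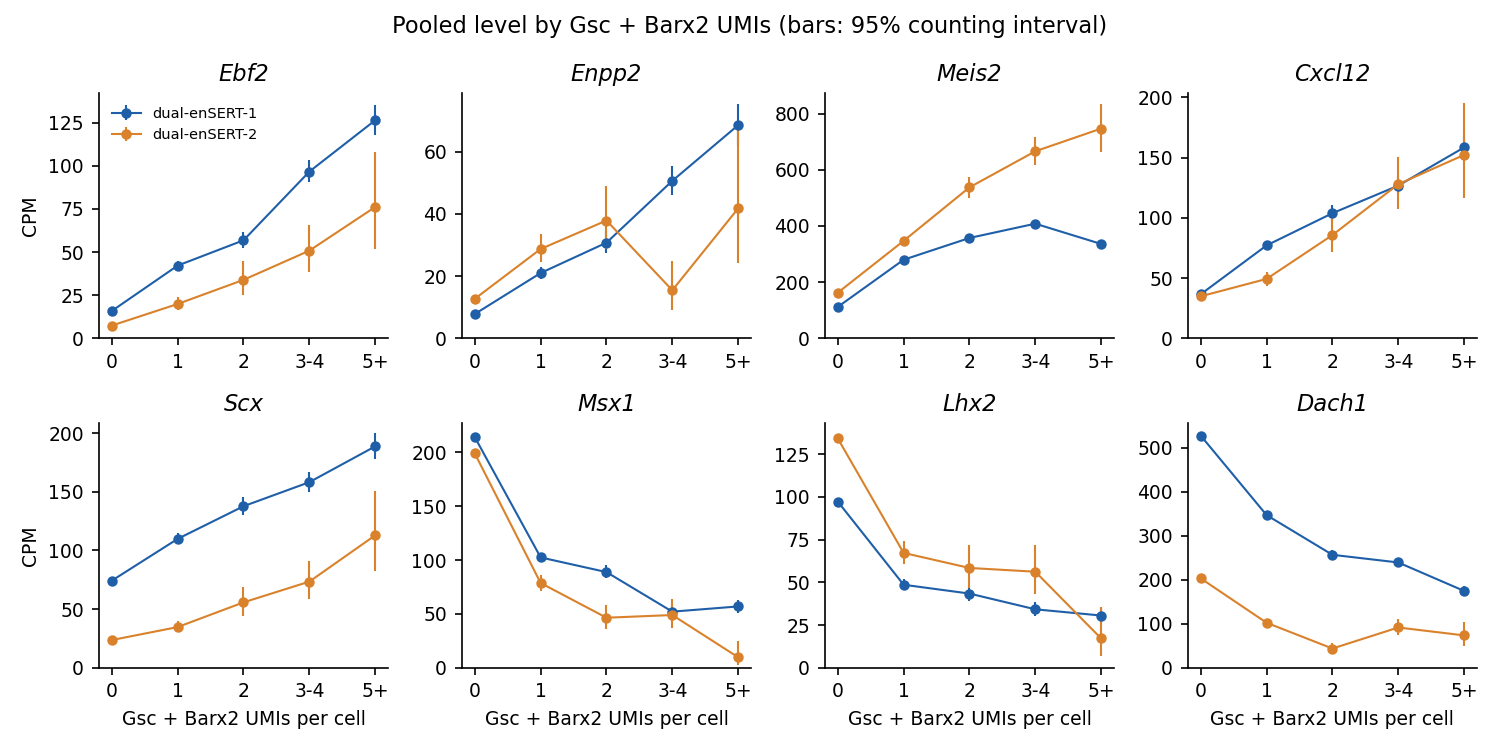
Pooled CPM (y axis) of genes in gated cells with Cnmd and Shh at 0, by the cell's Gsc and Barx2 UMIs (x axis), with a line for each library and bars for the exact 95% counting interval. Ebf2 is higher at each step in both libraries, from 15.8 to 126 CPM in dual-enSERT-1 and from 7.36 to 76.1 CPM in dual-enSERT-2.

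To place the members in the limb, every cell was given a position from genes the rule did not use, read at 5000 UMIs. Members of dual-enSERT-1 made up 14.7% (13.5 to 16) of cells with Meis1 or Meis2 but no Hoxa13 or Hoxd13, 9.48% (6.97 to 12.5) of those with both kinds, 4.80% (4.12 to 5.56) of those with Hoxa13 or Hoxd13 alone, and 15.8% (14.8 to 16.9) of those with neither. The low share was in the distal cells. In dual-enSERT-2 the shares were 4.80% (3.74 to 6.05), 2.83% (0.588 to 8.05), 0.461% (0.0559 to 1.66) and 1.40% (0.890 to 2.10), with the highest value in the Meis-positive cells. Read from the members, 14.9% of them had a Hoxa13 or Hoxd13 UMI in dual-enSERT-1, against 37.9% of reference cells, and 5.26% against 15.6% in dual-enSERT-2.

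Along the anterior-posterior axis, members made up 2.65% (1.49 to 4.33) of the cells with anterior genes alone (Pax9, Alx1 or Alx4) and 12.7% (11.9 to 13.5) of those with posterior genes alone (Hand2, Hoxd12 or Tbx2) in dual-enSERT-1. In dual-enSERT-2 the shares were 0.568% (0.0144 to 3.13) and 3.55% (2.67 to 4.62), but the former rests on 1 member. Cells with neither set held 12.2% and 2.15% members, so in dual-enSERT-1 the anterior cells stood low and the posterior cells did not stand high. Read from the members, a posterior gene was seen in 58.5% (55.9 to 61.1) against 54.4% of reference cells in dual-enSERT-1, and in 56.8% (46.3 to 67.0) against 41.8% (40.1 to 43.5) in dual-enSERT-2. Hand2, the posterior factor upstream of Shh, stood at 192 CPM in members against 188 CPM in reference cells, and at 148 CPM against 141 CPM. Hoxd11 stood at 263 CPM against 199 CPM and at 170 CPM against 175 CPM. Of 9 posterior genes listed 7 were compared, with 0 higher by 2-fold in both libraries and 1, Hoxd13, lower. Against reference cells with Cnmd and Shh at 0, Hoxd13 was under 2-fold lower in dual-enSERT-2. Lmx1b, the dorsal factor, was seen in 36.0% of members and 30.8% of reference cells in dual-enSERT-1, and in 20% and 9.69% in dual-enSERT-2. Members therefore included cells with and without this dorsal gene.

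**Figure D3:**
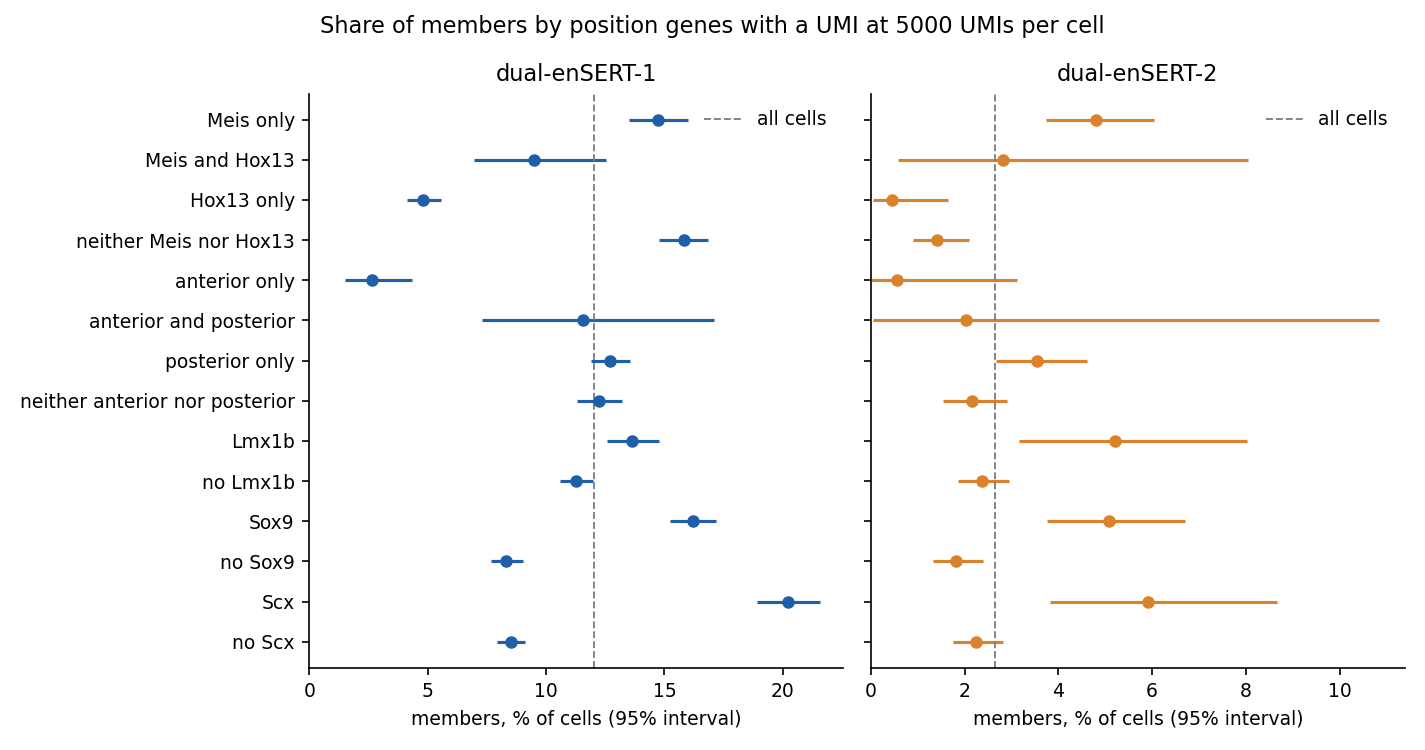
Percent of gated cells that are Gsc- or Barx2-positive (x axis) among cells sorted by position and tissue genes read at 5000 UMIs (y axis). There is a panel for each library, with bars for the exact 95% interval. Cells with Hoxa13 or Hoxd13 but no Meis1 or Meis2 hold 4.80% members (dual-enSERT-1) and 0.461% (dual-enSERT-2), whereas cells with Scx hold 20.2% and 5.91%.

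Signalling targets were described by list, since single targets are often too low in single cells. Over all 6793 genes compared, 2049 were positive and 2040 negative in both libraries. The FGF response genes, which respond to the ridge at the distal edge, leaned low: of 8 listed 7 were compared, and each of the 7 was negative in both libraries, with medians of -0.95 and -0.80. Of these 1, the feedback inhibitor Spry4, was 2-fold lower in both, at 5.31 CPM against 20.6 CPM and 10.9 CPM against 29.0 CPM. Etv4, an ETS factor induced by FGF, stood at 14.0 CPM against 39.6 CPM and at 29.2 CPM against 51.5 CPM. The BMP response list had medians of -0.51 and -0.34, with 1 of 7, Msx1, 2-fold lower. The ligand gene Bmp4 stood at 51.5 CPM against 126 CPM and at 49.4 CPM against 73.9 CPM. The Wnt list had medians of -0.34 and -0.42, with 1 of 9 compared, Rspo3, 2-fold higher, while the target Axin2 stood at 23.9 CPM against 39.7 CPM and at 10.6 CPM against 24.4 CPM.

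Hedgehog targets stood slightly higher in members of dual-enSERT-1, with a smaller difference in dual-enSERT-2. Ptch1, the receptor that the pathway induces, stood at 184 CPM against 135 CPM in dual-enSERT-1 and 150 CPM against 143 CPM in dual-enSERT-2. Gli1 stood at 23.8 CPM against 15.9 CPM and at 22.2 CPM against 19.7 CPM. Of 8 listed 6 were compared, 4 were positive in both libraries and 0 reached 2-fold, with medians of 0.49 and 0.09. Over all genes compared, 2049 of 6793 were positive in both. At 5000 UMIs, Ptch1 or Gli1 was seen in 58.9% of members and 42.0% of reference cells of dual-enSERT-1. In dual-enSERT-2 the shares were 53.7% (43.15 to 63.98) and 43.2% (41.53 to 44.95), and these intervals meet. The hindlimb factors Pitx1 (356 CPM against 352 CPM, and 313 CPM against 337 CPM) and Tbx4 (224 CPM against 181 CPM, and 127 CPM against 128 CPM) were present in both cell groups. Of the 12 mitosis genes and the 12 S phase genes listed, all compared, 0 reached 2-fold. The S phase medians were -0.20 and -0.08, with 10 of the 12 negative in both libraries. The share over all genes compared was 2040 of 6793.

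Among the cartilage genes compared, 0 reached 2-fold in both libraries, although some did in 1. Sox9 stood at 344 CPM against 207 CPM in dual-enSERT-1 and 182 CPM against 83.9 CPM in dual-enSERT-2. Sox6, which acts with Sox9 in cartilage, stood at 287 CPM against 91.8 CPM and at 35.1 CPM against 20 CPM. The cartilage collagen gene Col2a1 stood at 146 CPM against 78.8 CPM and at 31.2 CPM against 12.2 CPM. Of 16 cartilage genes listed 6 were compared, 5 were positive in both libraries and 0 reached 2-fold in both, with medians of 0.71 and 0.59. Over all genes compared, 2049 of 6793 were positive in both libraries. Of the joint interzone list, 4 of 11 were compared and 1, Enpp2, was higher. Gdf5, which marks joint interzones, was scarce at 2.12 CPM against 1.82 CPM and 0.995 CPM against 0.817 CPM. Tnmd, a gene of maturing tendon, stood at 0.120 CPM against 0.153 CPM in dual-enSERT-1 and had 0 UMIs in members of dual-enSERT-2. Of the 10 perichondrium and bone genes 0 were abundant enough to compare.

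The members were not of 1 kind. In dual-enSERT-1, where the 68 Barx2-only cells could be set against the 1137 Gsc-only cells, 60 of 7571 genes (0.792%) were higher in the Gsc-only cells and 87 (1.15%) lower by at least 2-fold. Cartilage genes were higher on the Barx2 side. Sox9 stood at 276 CPM in Gsc-only cells, 560 CPM in cells with both genes and 684 CPM in Barx2-only cells, beside 207 CPM in reference cells and 838 CPM in condensation cells. The condensation cells were picked for Sox9, so their level of it describes that choice. Sox6 stood at 190, 611 and 714 CPM in the same order, beside 91.8 CPM and 520 CPM. Col2a1 stood at 108, 268 and 333 CPM, beside 78.8 CPM and 450 CPM. Cells with both genes thus lay nearer the Barx2-only cells in these 3 genes. Foxc1, a forkhead factor of skeletal mesenchyme, stood at 13.3, 44.1 and 61.1 CPM, and Zeb2 at 37.3, 77.9 and 133 CPM, beside 31.9 CPM and 35.0 CPM in condensation cells.

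Furthest higher in Gsc-only cells, by the rule for naming, were Zfp804a (49.3 CPM against 0 UMIs in Barx2-only cells), the antisense transcript Tbx3os1 (59.3 CPM against 1.77 CPM), the LIM-homeobox gene Isl1 (32.9 CPM against 5.32 CPM), the protocadherin gene Pcdh10 (30.6 CPM against 5.32 CPM), Nr2f1 (37.3 CPM against 7.98 CPM) and Meis2 (450 CPM against 110 CPM). Among those furthest lower were the matrix genes Col8a1 (1.95 CPM against 38.1 CPM) and Matn4 (3.07 CPM against 43.4 CPM), the secreted guidance gene Sema3d (8.50 CPM against 91.3 CPM), Ndnf (14.0 CPM against 112 CPM) and Aldh1a2, which makes retinoic acid (12.7 CPM against 76.2 CPM). Tbx3os1 may share reads with overlapping genes, since the strand setting of the counting is not given in the sources used here.

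Ebf2, Enpp2 and Cacna1e were highest in the cells with both Gsc and Barx2. Ebf2 stood at 83.0 CPM in Gsc-only cells, 129 CPM in cells with both and 39 CPM in Barx2-only cells. Enpp2 stood at 38.4, 86.8 and 54.1 CPM, and Cacna1e at 6.30, 30.6 and 6.20 CPM. At 5000 UMIs, Gsc and Barx2 were seen together in 80 of 11981 cells, or 0.668% (0.530 to 0.830), where their separate shares of 10.9% and 2.12% would give 0.232% if they were independent. A Gsc UMI was seen in 31.5% of the cells with Barx2. In dual-enSERT-2 only 2 of 3578 cells had Barx2 at that depth, so joint presence could not be read there.

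Epidermal RNA moved with the Barx2 side. A UMI of Krt5, Krt14 or Trp63 was seen in 7 of 68 Barx2-only cells (10.3%, 4.24 to 20.1), 8 of 249 cells with both genes (3.21%), 12 of 1137 Gsc-only cells (1.06%) and 1.94% of reference cells. Krt14 stood at 10.6 CPM in Barx2-only and 0.256 CPM in Gsc-only cells. Scrublet marked 17 Barx2-only cells (25%), 18.9% of cells with both genes and 15.4% of Gsc-only cells. Sox9 in Barx2-only cells stood at 701 CPM without the cells with an epidermal UMI, and at 882 CPM without marked doublets, so it was no lower without either. Without the cells with an epidermal UMI, 65 genes were higher and 90 lower in Gsc-only cells, of which 53 and 79 are among the 60 and 87. Leaving out the marked doublets instead took the counts to 161 and 197, of which 52 and 78 are among them. Log2 differences then moved from 2.32 to 5.01 for Pcdh10, 4.44 to 6.02 for Tbx3os1 and 2.09 to 3.32 for Nr2f1. Isl1 went from 2.42 to 3.16 and Meis2 from 2.025 to 2.792. Among genes higher in Barx2-only cells, Sema3d went from -3.281 to -4.015, Matn4 from -3.45 to -4.13 and Aldh1a2 from -2.495 to -3.154. The difference of Ebf2 became smaller, from 1.07 to 0.68.

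The Gsc-only cells were in turn split by Meis, in a step chosen after the levels had been seen. In dual-enSERT-1, 555 of them (48.8%) had a Meis1 or Meis2 UMI and 582 did not. Isl1 stood at 57.9 CPM in those with and 2.81 CPM in those without, Tbx3 at 84.9 CPM and 3.49 CPM, and Nr2f1 at 63.6 CPM and 5.74 CPM. These 3 factors thus stood far lower in Gsc-only cells without Meis. Rarb stood at 54.0 CPM and 22.4 CPM, Osr1 at 70.0 CPM and 15.9 CPM, and Ebf2 at 111 CPM and 49.6 CPM. Other genes went the opposite way: Scx stood at 119 CPM with Meis and 210 CPM without, Sox9 at 213 and 353 CPM, Sox6 at 122 and 271 CPM, Enpp2 at 21.6 and 58.5 CPM and Hoxd11 at 190 and 330 CPM. Hand2 was at 203 CPM in both. Among reference cells the Meis split gave 22.5 CPM and 6.07 CPM for Isl1, 11 CPM and 6.48 CPM for Enpp2, and 297 CPM and 144 CPM for Sox9, so Enpp2 and Sox9 went the other way in the reference cells of this library. Scx, at 100 CPM with Meis and 51.3 CPM without, and Sox6, at 135 and 62.1 CPM, also went the other way there. Tbx3, Nr2f1, Rarb, Osr1, Ebf2 and Hoxd11 split in the same direction as in Gsc-only cells.

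In dual-enSERT-2, 83 of the 93 Gsc-only cells (89.2%) had a Meis UMI, which leaves 10 without. Isl1 stood at 18.1 CPM in the 83 and had 0 UMIs in the 10, and Tbx3 stood at 44.8 CPM and had 0 UMIs. Enpp2 stood at 21.5 CPM with and 114 CPM without, Sox9 at 164 and 319 CPM, and Hoxd11 at 155 and 279 CPM. These directions were those of dual-enSERT-1, but Scx, at 74.2 CPM with and 40.3 CPM without, and Sox6, at 32.8 and 30.2 CPM, were not lower with Meis here, and 10 cells are few. Among reference cells of dual-enSERT-2, Enpp2 stood at 9.15 CPM with Meis and 17.9 CPM without, the direction seen in Gsc-only cells. Isl1, Tbx3, Scx and Hoxd11 also split there as in Gsc-only cells. Sox9, at 105 CPM with Meis and 39.1 CPM without, went the other way, and Sox6 stood at 19.2 and 21.5 CPM. Read at 5000 UMIs, Meis1 or Meis2 was seen in 34.8% of members of dual-enSERT-1 and 73.7% of those of dual-enSERT-2, and the reference cells also differed, at 27.4% and 40.1%.

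**Figure D4:**
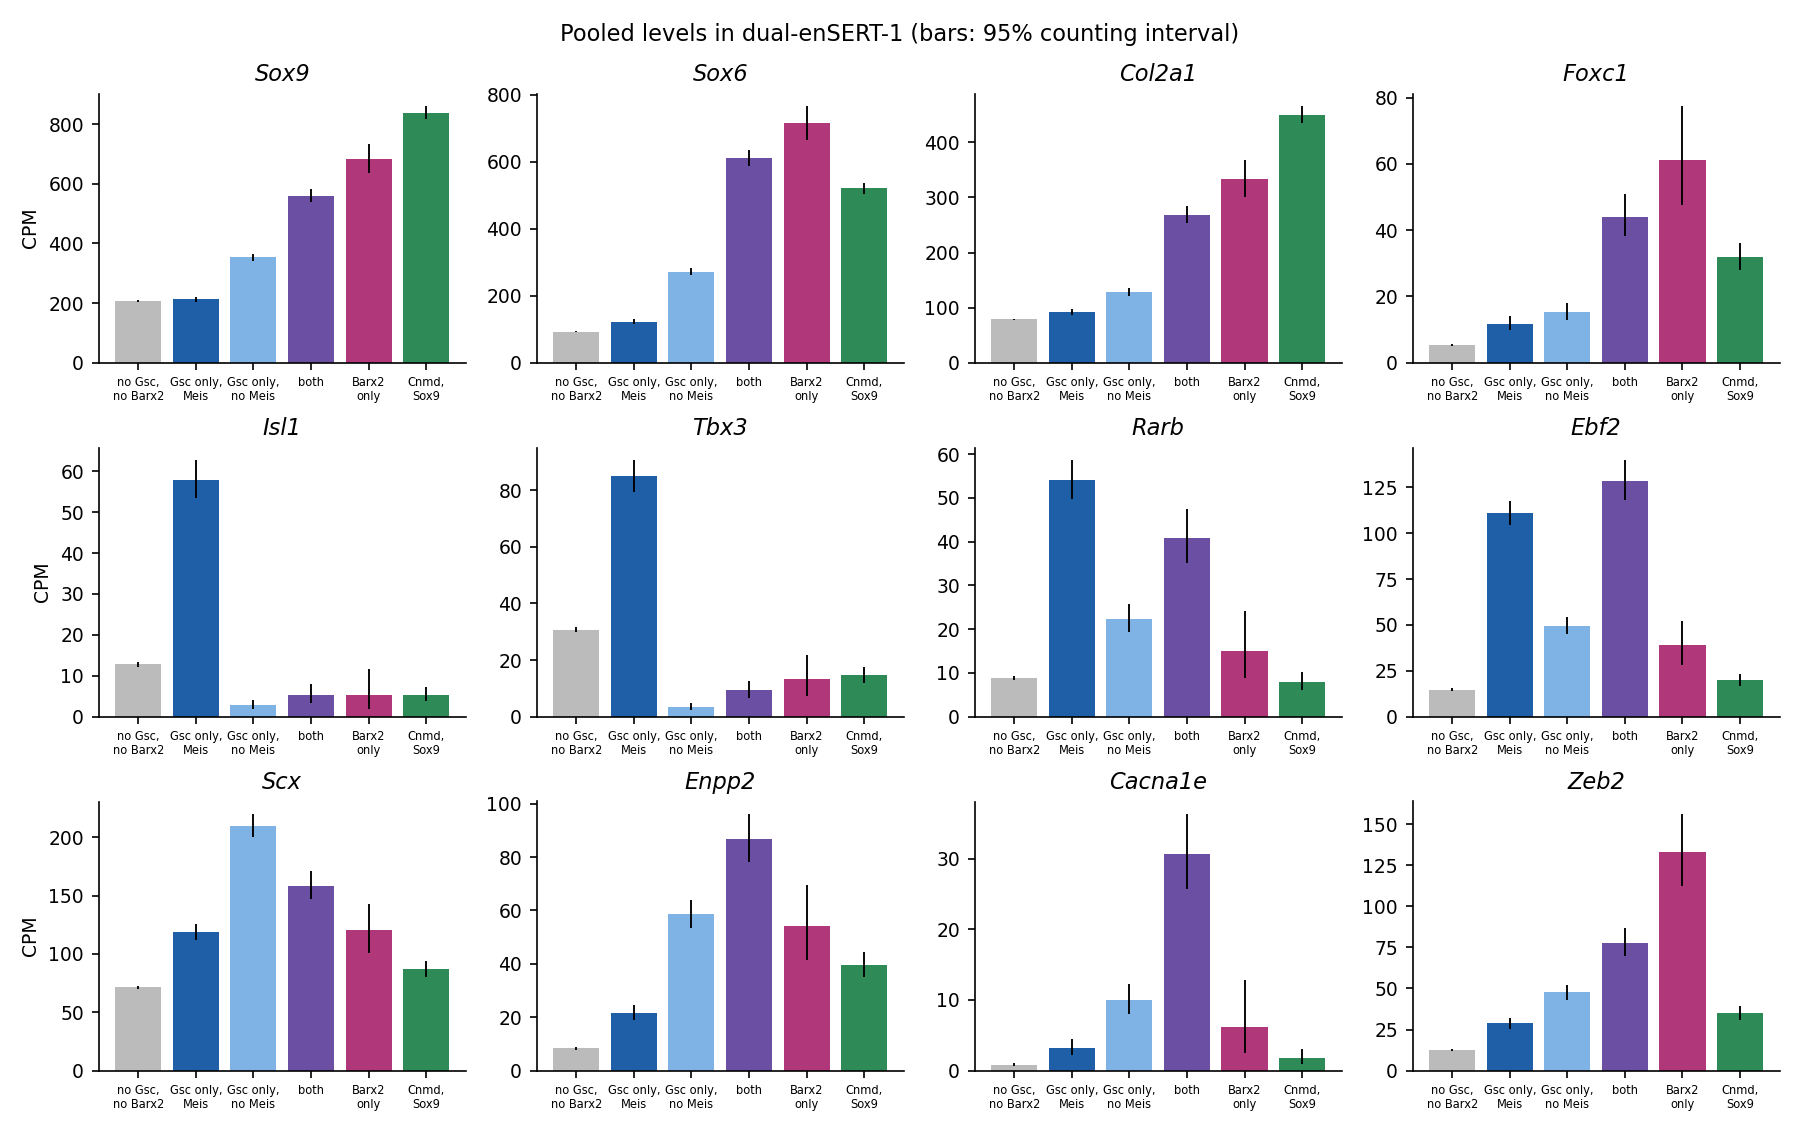
Pooled CPM (y axis of each panel, from 0) of 12 genes in dual-enSERT-1 for reference cells, Gsc-only cells with and without a Meis1 or Meis2 UMI, cells with both genes, Barx2-only cells and condensation cells (x axis), with exact 95% counting intervals. Isl1 is at 57.9 CPM in Gsc-only cells with Meis and at 2.81 CPM in those without, and Sox9 goes from 276 CPM over all Gsc-only cells to 684 CPM in Barx2-only cells.

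Likeness between cells was read from their 15 nearest neighbours, found without Gsc, Barx2, the other genes of the rule and the reporters. Among neighbours of members, 39.5% (dual-enSERT-1) and 9.75% (dual-enSERT-2) were members, which were 12% and 2.66% of all cells used. Among neighbours of reference cells, 5.41% and 1.97% were members. Cells with 1 UMI lay between, at 18.9% and 5.40%. Of the neighbours of Barx2-only cells, 28.8% were members, 5.05% were themselves Barx2-only against 0.551% of all cells, and 10.9% were condensation cells against 3.48%. Of the neighbours of Gsc-only cells, 0.746% were condensation cells. By this measure the Barx2-only cells lay nearer to condensation cells than the Gsc-only cells did.

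Against the condensation cells the comparison is of dual-enSERT-1 alone, since dual-enSERT-2 holds 2 such cells. This was settled once the cells had been counted. Of the 418 condensation cells of dual-enSERT-1, 37 had at least 2 Gsc and Barx2 UMIs, so the group is not free of such cells. Scrublet marked 84 (20.1%) of the 418 as doublets. Of 7453 genes, 47 (0.631%) were higher in members and 118 (1.58%) lower by at least 2-fold. Members had more RNA of posterior genes and of Ebf2, and less of cartilage genes. The absence of Cnmd in members, and the Cnmd and Sox9 required of condensation cells, help to set the direction of the cartilage genes. Among the 10 genes named as furthest higher, Tbx3os1 stood at 49.2 CPM in members and 4.26 CPM in condensation cells, Zfp804a at 38.9 and 5.91 CPM, Rarb at 38.7 and 7.97 CPM, Isl1 at 26.8 and 5.36 CPM, Ebf2 at 89.0 and 19.9 CPM, and Hoxc11 at 88.6 and 22.3 CPM. Tafa1, Kcnma1, Kcnq5 and ENSMUSG00000120400 complete the 10, with log2 differences of 2.39, 2.38, 1.77 and 1.81. Among those furthest lower, Col8a1 stood at 4.27 CPM in members and 66.1 CPM in condensation cells, Papss2, which makes the sulfate donor for cartilage matrix, at 3.59 and 46.8 CPM, and the receptor gene Erbb3 at 1.68 and 20.5 CPM. Galnt13, Egfem1, Sema3d, Adcy2 and Plagl1 were also among them.

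By list, 6 of 9 posterior genes compared were higher in members than in condensation cells, with a median of 1.21, and 6 of 9 cartilage genes were lower, with a median of -1.50. Over all genes compared the median was 0.00. Enpp2 stood at 47.6 CPM and 39.6 CPM, and Scx at 158 CPM and 86.9 CPM. Enpp2, so far above the reference level in members, was thus nearly as high in condensation cells, whereas Ebf2 was not.

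Both reporters were lower in members than in reference cells. In dual-enSERT-1 eGFP, driven by the variant ZRS, stood at 55.3 CPM in members and 171 CPM in reference cells, and in dual-enSERT-2 at 9.28 CPM and 29.1 CPM. The ratios were 0.324 (0.307 to 0.342) and 0.319 (0.211 to 0.462). mCherry, driven by the reference ZRS, stood at 12.5 CPM and 63.8 CPM in dual-enSERT-1 and at 7.29 CPM and 23.1 CPM in dual-enSERT-2, with ratios of 0.195 (0.174 to 0.218) and 0.316 (0.198 to 0.480). Leaving out marked doublets took the dual-enSERT-1 value for mCherry to 0.120. In cells of other lineages, where the limb enhancer should be off, eGFP stood at 30.9 CPM and 13.4 CPM and mCherry at 17.3 CPM and 13.6 CPM. Of the 4 member levels, eGFP in dual-enSERT-1 was above this background, and the others were at or below it and are not read as activity. By position, that eGFP level was 88.6 CPM in the 454 members with a Hoxa13 or Hoxd13 UMI. In the 1000 members without, it was 31.3 CPM (28.5 to 34.3), which is at the background.

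The rule bars Shh-positive and Cnmd-positive cells from the members but not from the reference cells, and Shh cells are where the ZRS acts. Against reference cells that also had Cnmd and Shh at 0, the eGFP ratio was 0.359 (0.340 to 0.379) in dual-enSERT-1 and 0.570 (0.377 to 0.828) in dual-enSERT-2, and the mCherry ratio 0.413 (0.367 to 0.463) and 0.592 (0.369 to 0.901). Much of the mCherry difference thus went with Shh- and Cnmd-positive reference cells. Among cells without Hoxa13 and Hoxd13 UMIs, and with that stricter reference, the eGFP ratio was 0.598 (0.541 to 0.660) and 0.592 (0.342 to 0.955), and the mCherry ratio 0.916 (0.745 to 1.12) and 0.755 (0.419 to 1.26). That combination was added after the values had been seen. The member levels in it were at or below the background given above, so these ratios are not read as activity. Among distal cells with the stricter reference, eGFP stood at 88.6 CPM in 454 members and 228 CPM in 4369 reference cells of dual-enSERT-1. In dual-enSERT-2 the 15 distal members had 11 eGFP UMIs and 7 mCherry UMIs, a ratio of 0.687 (0.342 to 1.24) for eGFP, which this depth does not set apart from 1.

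**Figure D5:**
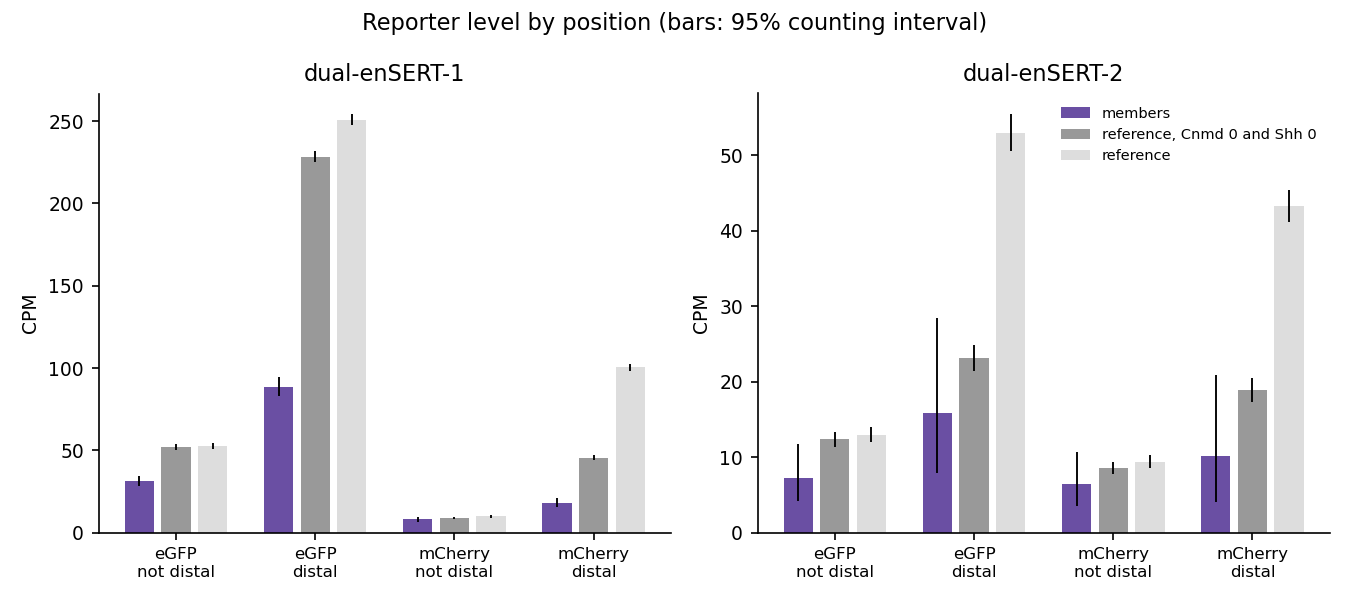
Pooled CPM (y axis, from 0) of eGFP and mCherry in Gsc- or Barx2-positive cells, reference cells and reference cells with Cnmd and Shh at 0. Bars are grouped by reporter and by distal or other position (x axis), with a panel for each library and exact 95% counting intervals. In distal cells of dual-enSERT-1 eGFP is at 88.6 CPM in members and 251 CPM in reference cells.

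Per mCherry UMI, members of dual-enSERT-1 had 4.44 eGFP UMIs (3.92 to 5.03) and reference cells 2.67 (2.61 to 2.73). In dual-enSERT-2 the values were 1.27 (0.702 to 2.33) and 1.26 (1.19 to 1.34). In a comparison added after the values had been seen, against reference cells with Cnmd and Shh at 0, the direction turned in dual-enSERT-1, where these had 5.10 (4.94 to 5.28), with an interval that meets that of the members. In dual-enSERT-2 they had 1.32 (1.22 to 1.44). Members of dual-enSERT-2 had 28 eGFP and 22 mCherry UMIs. Since mCherry in members was below the background given above, no order of the reporters is read from these ratios.

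Set side by side, members of the 2 libraries differed in many genes: 234 of 7391 (3.17%) were at least 2-fold higher in dual-enSERT-1 and 53 (0.717%) lower. Ranked by how far the difference went beyond that of reference cells, the first were Tafa1 (39.7 CPM in dual-enSERT-1 against 2.65 CPM), Zfp804a (38.9 against 0.995 CPM), Adamts12 (26.6 against 3.98 CPM), Pde1c (39.4 against 11.9 CPM), Abca8b (22.8 against 5.64 CPM) and the immediate early gene Jun (163 against 26.5 CPM). Jun stood at 69.8 CPM and 29.8 CPM in reference cells. Higher in dual-enSERT-2 were Pkdcc, a secreted kinase gene of the skeleton (29.2 CPM in dual-enSERT-1 against 139 CPM), Cntfr (8.71 against 23.5 CPM), Meis1 (110 against 227 CPM), Rspo2 (9.78 against 21.9 CPM), Sgcz (8.39 against 25.2 CPM) and 2010204K13Rik (9.10 against 29.5 CPM). The different shares of Meis-positive and Barx2-positive members move with these values, and their part in them was not tested.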

How the data were processed

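The deposited matrices hold whole UMI counts for each gene in each barcode, with no normalization, and their headers name Cell Ranger 7.0.1. Per the submitters' processing notes, Cell Ranger 3.1.0 and Seurat 4 were used with mm39, and it is not settled which version counted. Per the labels' protocols, 10000 cells were loaded and about 50000 reads per cell sequenced. The libraries hold 298653282 and 184301053 UMIs. Whether intronic reads or strand entered the counting is not given in the sources used here.

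The members, gene lists and markers were chosen with earlier results of these data known, so a list's count supports nothing on its own. Counts were pooled by cell group and library with Python 3.11.15, NumPy 2.4.6, SciPy 1.17.1 and pandas 2.3.3. Levels have exact Poisson intervals, ratios conditional exact binomial and shares Clopper-Pearson intervals, at 95%. Log2 ratios add 1 CPM to each level. A gene was compared if its level reached 20 CPM on 1 side or the other, in each library that enters. Genes of the rule and the gate stayed out of counts of genes. Named genes were up to 15 per direction against reference cells, 10 against condensation cells and 6 in the other comparisons, ranked by the smaller fold, and some of them are not reported here. Shares were also read at 5000 UMIs per cell. Neighbours came from 2000 variable genes and 30 components (Scanpy 1.11.5, scikit-learn 1.9.0). Scrublet assumed 8% doublets, and marked cells were kept except where stated. The pooling and fold steps were tested on simulated data. Coordinates are from GENCODE M39 on GRCm39.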

Additional observations from a re-analysis of the deposited data

Results flagged for a closer look

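A number of listed or named genes had differences between members and reference cells of opposite sign in the libraries. Each arm is 1 library, so the difference between the libraries was not tested, and many of the values are close to 0. Positive in dual-enSERT-1 and negative in dual-enSERT-2 were, as log2 differences, the Hox genes Hoxa11 (0.60 and -0.30), Hoxd8 (0.80 and -0.69), Hoxd9 (0.45 and -0.40) and Hoxd10 (0.37 and -0.52), the transcription factor genes Sall1 (0.54 and -0.61) and Sox5 (0.29 and -0.18), and the immediate early gene Fos (0.26 and -1.21). The collagen genes Col1a2 (0.17 and -0.30) and Col5a2 (0.25 and -0.46), the guidance receptor gene Nrp2 (0.24 and -0.32), the calcium channel gene Cacna1a (0.55 and -0.58), the phosphodiesterase gene Pde1c (1.05 and -0.56) and ENSMUSG00000120400 (0.78 and -0.58) did the same. The platelet gene Pf4 (0.37 and -3.55) did too.

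Negative in dual-enSERT-1 and positive in dual-enSERT-2 were the homeobox gene Irx3 (-0.28 and 2.56), the ligand gene Efnb2 (-0.32 and 0.68), Twist2 (-0.09 and 0.27) and the mitosis genes Birc5 (-0.04 and 0.13) and Ccnb1 (-0.07 and 0.26). The Irx3 difference of 2.56 is close in size to that of Ebf2 in the same library. Irx3 was not among the genes compared, since it did not reach 20 CPM in each library.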

How the results depend on the processing

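No paired analysis was possible because each group holds 1 library. All alternatives below compare cells of the same 2 libraries, and the causes of the shifts were not tested beyond what each alternative does by construction.

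Members made up 11.7% and 2.53% of gated cells, and 7.28% and 1.31% with at least 3 Gsc and Barx2 UMIs, 4.12% and 0.168% after thinning to 5000 UMIs, and 10.9% in dual-enSERT-1 without marked doublets. Against reference cells, the 13 higher and 11 lower genes became 29 and 34 with no minimum CPM, 53 and 33 at an absolute log2 difference of 0.58 (added after the data were seen), 7 and 6 among cells without Hoxa13 and Hoxd13, also 7 and 6 with the stricter reference there (added after the data were seen), 8 higher with a pseudocount of 5 CPM, 17 lower with at least 3 UMIs, and 5 lower with the stricter reference alone. Without marked doublets all 24 genes were still 2-fold apart in each library. The thinned cells (6 members in dual-enSERT-2), the distal cells (15) and the Barx2-only cells (0) gave no count over both libraries.

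Against condensation cells, the 47 higher and 118 lower genes became 30 and 65 with Barx2-only members, 151 and 289 with no minimum CPM and 135 and 236 after thinning, and the higher count became 71 from means of CPM per cell and 84 without marked doublets. Between Gsc-only and Barx2-only members, the 60 and 87 became 161 and 197 without marked doublets and 172 and 203 without epidermal UMIs as well (both added after the data were seen). Leaving out the doublets left 51 Barx2-only cells. In Barx2-only members Nr2f1 was lower than in reference cells of dual-enSERT-1, at -0.77.

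The eGFP ratio of dual-enSERT-1, 0.324, became 0.385 in Barx2-only members, 0.276 with at least 3 UMIs, 0.592 without Hoxa13 and Hoxd13 (0.598 with the stricter reference), 0.353 in distal cells (0.388), 0.359 with the stricter reference alone, 0.238 thinned and 0.229 without doublets. That of dual-enSERT-2, 0.319, became 0.562 (0.592) without Hoxa13 and Hoxd13 and 0.570 with the stricter reference. The mCherry ratio of dual-enSERT-1, 0.195, became 0.153, 0.165, 0.826 (0.916), 0.401 in distal cells with the stricter reference, 0.413, 0.238 and 0.120 in the same order, and that of dual-enSERT-2, 0.316, became 0.686 (0.755) and 0.592. All of these ratios were under 1. The 95 members of dual-enSERT-2 hold 28 eGFP and 22 mCherry UMIs, which limits the precision of their ratios.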
